A study of Triticum aestivum with 6 samples.

Results

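Of the 442311 transcripts assembled from wheat leaf RNA, 57882 carry no gene ID, and 17972 of these had a mean over both growth temperatures of at least 1 FPKM (fragments per kilobase of transcript, scaled to the mapped fragments of the library). The 17972 transcripts were taken by that rule alone, which uses the level and not the difference between temperatures. Leaves of bread wheat (Triticum aestivum) were sampled from plants kept at 23 °C, labelled 2 weeks, and from plants kept at 4 °C, labelled 4 weeks; the treatment field of all 6 libraries alike reads 2 weeks of cold. Each temperature had 3 libraries, called biological replicates in the series design, its own growth chamber and a 16-hour day, and all 6 libraries are labelled with the same 18:3 lipid phenotype. The sources used here do not give the cultivar or say whether plants were pooled. Temperature, chamber and labelled weeks cannot be told apart.

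Assembly from reads joins overlapping fragments into transcripts whether or not a gene model lies beneath them. Transcripts left without a gene ID can come from genes missing in an annotation, from long noncoding RNAs, from antisense transcription, from transposable elements, which fill most of the wheat genome, or from pieces of untranslated regions cut off from their gene. Winter cereals remodel leaf transcription when kept cold above freezing, a process known as cold acclimation. Nothing in the table says to which kind a given transcript belongs: it holds no name, sequence or coordinate for them, and 0 of the 17972 IDs were found in a table of RefSeq wheat genes. The labelled leaf identity was not checked on marker genes, since these transcripts carry no gene and no list of markers was given. Transcripts with a gene ID were not searched for markers.

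The authors deposited 1 value per transcript and temperature, so every value below is theirs and has no SD, and differences have no replicate check and no p-value. The columns sum to 1006040 FPKM at 23 °C and 1052450 at 4 °C, and the depth of the libraries is unknown. A value of exactly 0 can be a failed estimate. Wheat is hexaploid, with like gene copies (homoeologues) on its A, B and D subgenomes, and reads that fit several copies can be divided among transcripts. A lower level in bulk leaf RNA cannot separate fewer cells from less RNA per cell.

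The class was mostly scarce, with a short abundant tail. The median of the mean level was 2.38 FPKM with quartiles of 1.47 and 4.97, against a median of 3.12 FPKM for the 59442 transcripts with a gene ID that passed the same limit. In all, 7562 transcripts had a mean from 1 to under 2 FPKM, 5944 from 2 to under 5, 3491 from 5 to under 20, 798 from 20 to under 100, 169 from 100 to under 1000, and 8 had 1000 or more. Transcripts without a gene ID passed the limit in 31.0% of cases and those with one in 15.5%. The limit cut through a dense part of the distribution: 1346 transcripts lay between 0.9 and 1 FPKM and 1203 between 1 and 1.1. The member nearest to the limit had 0.708 FPKM at 23 °C and 1.29 at 4 °C, and the nearest transcript left out had 1.65 and 0.353.

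Few transcripts carried much of the signal. The most abundant transcript at 23 °C took 10.9% of the members' FPKM there, and the most abundant one at 4 °C took 2.59%. The leading 10 took 24.3% at 23 °C and 12.1% at 4 °C, and the leading 100 took 42.5% and 35.5%. The 2 lists of 100 shared 49 transcripts, so about as many left the list as stayed. Members with 1 FPKM or more at both temperatures numbered 12685. Another 3357 reached 1 FPKM at 23 °C alone and 1930 at 4 °C alone.

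Among the 10 most abundant members by mean level, 7 were lower at 4 °C and 3 higher. The first stood at 18762 FPKM at 23 °C against 2614 in the cold. The second stood at 6277 against 721 FPKM, and the third at 5379 against 1111 FPKM. All 3 were several times lower in the cold, by ratios of 7.18, 8.71 and 4.84. The fourth went against them, with 132.9 FPKM at 23 °C and 30.3 times that, 4031 FPKM, at 4 °C, which made it the most abundant member in the cold. The last of the 10 was also higher, at 1780 FPKM in the cold against 89.3 FPKM at 23 °C. The fifth (2252 and 1023 FPKM) and the eighth (1486 and 616 FPKM) were lower at 4 °C by ratios of 2.20 and 2.41. The remaining 3 differed by less than 2-fold, with 1784 and 1199 FPKM for the sixth, 1574 and 1131 FPKM for the seventh, and 907 and 1046 FPKM for the ninth. Together the 10 summed to 38643 FPKM at 23 °C and 15271 at 4 °C.

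**Figure D1:**
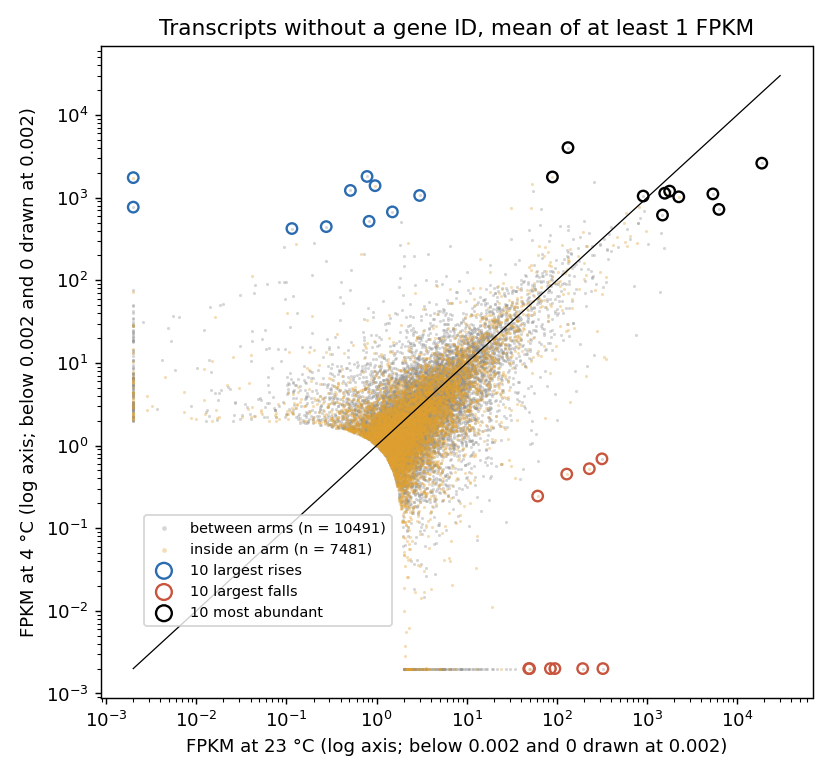
FPKM at 23 °C (horizontal, log axis) against FPKM at 4 °C (vertical, log axis) of the 17972 transcripts without a gene ID, with values of 0 and below 0.002 drawn at 0.002 and equality as the diagonal; colours separate the 10491 transcripts numbered between arms from the 7481 inside an arm. Rings mark the 10 largest rises (422.8 to 1805 FPKM at 4 °C), the 10 largest falls (48.9 to 324.2 FPKM at 23 °C) and the 10 most abundant members; the curved lower edge of the cloud is the limit of 1 FPKM on the mean.

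The comparison of 4 °C with 23 °C was made on log2(FPKM + 1), which understates the change of scarce transcripts. Lower transcripts outnumbered higher ones at a 2-fold difference, and higher ones were as many or more at steeper folds. At least 2-fold higher at 4 °C were 2050 members, or 11.4%, against a background of 14.1% over all 77414 transcripts at or above the limit. At least 2-fold lower were 2895 members, or 16.1%, against a background of 10.2%. At 4-fold, 639 members were higher (3.56%, background 3.45%) and 606 lower (3.37%, background 2.05%). Transcripts with a gene ID stood at 3.41% higher and 1.65% lower at that fold. At 8-fold, 229 members were higher (1.27%, background 1.1%) and 152 lower (0.846%, background 0.504%). Shares of lower members thus lay above the background at each fold. Shares of higher members lay below it at 2-fold and slightly above it at 4-fold and 8-fold. The background includes the members, and with 1 value per temperature these shares have no error. The median log2 difference was -0.15 with quartiles of -0.71 and 0.42, beside a median of 0.07 over all transcripts and 0.13 over those with a gene ID.

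Which direction led at 4-fold depended on scaling and pseudocount, and at 2-fold and 8-fold it did not under the settings tried. At 4-fold, lower members led after quantile normalization (576 higher, 708 lower), with a pseudocount of 0.1 (1247 and 1680), and after median-of-ratios scaling over transcripts at or above the limit (591 and 665), which shifts the columns by 0.09 in log2. At 2-fold, lower members led under each of these settings. At 8-fold, higher members led under each, narrowly with a pseudocount of 0.1 (679 and 670).

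In the deposited values, the balance of directions differed with abundance. The lowest class, from 1 to under 2 FPKM, had 494 members (6.53%) that were 2-fold higher or more in the cold and 976 (12.9%) that were as much lower. From 2 to under 5 FPKM the counts were 707 (11.9%) and 1013 (17.0%), and from 5 to under 20 FPKM 599 (17.2%) and 701 (20.1%). From 20 to under 100 FPKM the balance was the reverse, with 199 (24.9%) higher and 161 (20.2%) lower, but after quantile normalization 152 were higher and 202 lower. From 100 to under 1000 FPKM, 50 (29.6%) were higher and 39 (23.1%) lower, and 48 and 44 after quantile normalization. Of the 8 members with 1000 FPKM or more, 1 was higher and 5 were lower. Transcripts with a gene ID had more higher than lower ones in every class up to 1000 FPKM in the deposited values. From 1 to under 2 FPKM these shares were 10.7% and 7.50%, and from 2 to under 5 FPKM 13.8% and 8.59%. They were 18.1% and 8.65% from 5 to under 20 FPKM, and 25.7% and 9.27% from 20 to under 100. From 100 to under 1000 FPKM they were 23.4% and 12.5%. Below 20 FPKM the 2 kinds of transcript thus stood on opposite sides, a description with no test. In each class up to 1000 FPKM, the lower share of members lay above that of transcripts with a gene ID. The higher share of members lay below theirs up to 100 FPKM and above it from 100 to under 1000.

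**Figure D2:**
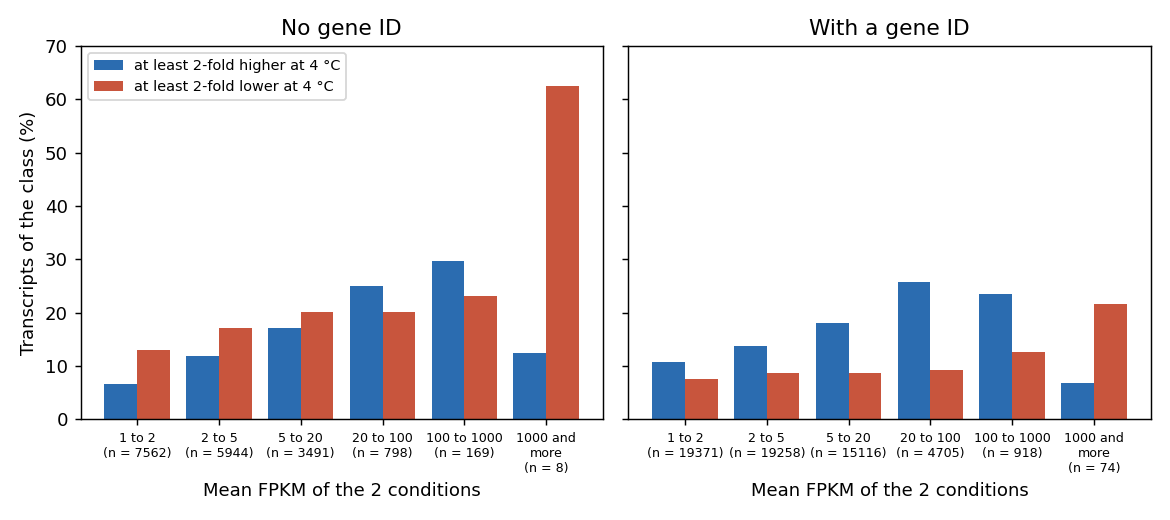
Percentage of transcripts at least 2-fold higher (blue) or lower (red) at 4 °C on log2(FPKM + 1), by mean FPKM class, for transcripts without (left) and with (right) a gene ID; n is the number of transcripts in the class. Without a gene ID, red bars exceed blue ones below 20 FPKM (12.9% and 6.53% in the lowest class); with a gene ID, blue bars exceed red ones up to 1000 FPKM.

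Rises and falls here name ranked differences between the deposited values, not tested changes. The largest rises came from transcripts with little or no signal at 23 °C that reached 422.8 FPKM or more at 4 °C. Among members with a mean of at least 5 FPKM, the 10 largest rises had at most 3.01 FPKM at 23 °C, and the highest reached 1805 FPKM in the cold. Together they went from 0.00464% to 6.45% of the members' FPKM. TCONS_00115241 was listed at 0 at 23 °C and at 1747 FPKM at 4 °C. TCONS_00400492 went from 0.784 to 1805 FPKM, a ratio of 2302. The first stood alone in number order: the transcripts numbered directly before and after it carry a gene ID of arm 2DL and were listed at 0 at both temperatures.

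The third largest rise went from 0.513 to 1222 FPKM, and the fourth was listed at 0 at 23 °C and at 767.7 FPKM at 4 °C. The fifth went from 0.963 to 1396 FPKM and lies among transcripts of arm 2AL. The transcript 2 numbers after it has a gene ID and went from 0.140 to 2312 FPKM, so an annotated transcript of like pattern stood close by. The sixth (0.115 and 422.8 FPKM), seventh (0.277 and 446.2), eighth (0.826 and 517.3), ninth (1.499 and 672.5) members of the list, and the last (3.01 and 1062), had ratios from 353.3 to 3674. The eighth is 2 numbers from the fourth most abundant member, which went from 132.9 to 4031 FPKM, while the transcript between them had 4.69 and 2.89 FPKM. The ninth directly follows a transcript that went from 0.405 to 96.5 FPKM.

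The high side of the largest falls was below that of the largest rises. The 10 largest falls had 48.9 to 324.2 FPKM at 23 °C and at most 0.691 FPKM at 4 °C, and together took 0.890% of the members' FPKM at 23 °C. TCONS_00050088 had 324.2 FPKM at 23 °C and was listed at 0 at 4 °C, and TCONS_00012347 had 193.4 FPKM and was listed at 0. The third had 316.3 and 0.691 FPKM, a ratio of 457.9, and the fourth 229.2 and 0.525 FPKM, a ratio of 436.8. Of the 10, 6 were listed at 0 at 4 °C, against 2 of the 10 largest rises at 23 °C. The eighth largest fall (49.8 FPKM, then listed at 0) directly follows the last of the 10 largest rises in number, so opposite differences of large size stood side by side.

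Members on in one column alone were rare in both directions. At 23 °C 141 members (0.785%) were listed at 0, against a background of 0.499% over all transcripts at or above the limit, and at 4 °C 157 (0.874%), background 0.471%. By the limit on the mean, such a member has at least 2 FPKM at the other temperature, so their difference follows from the rule. Those listed at 0 at 23 °C had a median of 5.46 FPKM at 4 °C, and 40 of them reached 10 FPKM. Those listed at 0 at 4 °C had a median of 3.83 FPKM at 23 °C, and 28 reached 10 FPKM. Under 5 FPKM at the other temperature were 66 of the 141 and 90 of the 157. After TCONS_00115241 and the member at 767.7 FPKM, the next 3 that were listed at 0 at 23 °C had 76.7, 72.1 and 50.04 FPKM at 4 °C. At 4 °C the 5 highest had 324.2, 193.4, 95.1, 84.8 and 49.8 FPKM at 23 °C. A further 130 members were above 0 and under 0.1 FPKM at 23 °C, of which 36 reached 10 FPKM at 4 °C. At 4 °C 88 were in that range, and 5 of them reached 10 FPKM at 23 °C.

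Number order placed the transcripts in 2 different settings. Each gene ID names a chromosome arm, and the transcripts of each of the 41 arms (3B counts as 1) fill a single stretch of consecutive numbers, in which transcripts without a gene ID are interspersed. After the last gene ID of each arm comes a block of transcripts without any, before the next arm begins or, after 7DS, before the table ends. Inside arms, 7481 members lie between gene IDs of the same arm. The 41 blocks hold the other 10491 members, or 58.4%, and 71.1% of the members' FPKM at 23 °C and 68.2% at 4 °C. Without the 3 most abundant members these shares were 64.9% and 67.2%. The sources used here do not say what the blocks stand for in the assembly, and whether a block belongs to the arm before it was not tested.

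Blocks had from 86 to 1139 transcripts with a median of 509, and 49.6% of block transcripts reached 1 FPKM. Inside arms 20.4% of transcripts without a gene ID did. There they formed small groups: of 12079 groups of consecutive numbers, 38.0% were a single transcript and the longest had 27. Members in blocks were more abundant, with a median of the mean level of 2.80 FPKM and a 90th percentile of 13.7, against 1.95 and 8.39 FPKM inside arms. Of the 10 most abundant members 7 were in blocks, as were 8 of the 10 largest rises and 6 of the 10 largest falls. Inside arms were 30.2% of members of 5 to under 20 FPKM and 29.8% of those of 20 to under 100. From 100 to under 1000 FPKM 33.7% were inside arms, and 25% at 1000 FPKM or more. The counts in these lists of 10 were thus near the share of blocks among members of such levels. Of the members listed at 0, 82.3% at 23 °C and 84.7% at 4 °C were in blocks.

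At 2-fold, the excess of lower members was wider inside arms than in blocks. At 4-fold the excess held inside arms (135 higher, 193 lower) and not in blocks (504 and 413). At 8-fold it held in neither, with 48 higher and 43 lower inside arms and 181 and 109 in blocks. Inside arms, 589 members (7.87%) were higher by 2-fold or more and 1137 (15.2%) lower, with a median log2 difference of -0.19. In blocks, 1461 (13.9%) were higher, 1758 (16.8%) were lower and the median was -0.12. Over all transcripts at or above the limit, 14.1% were higher and 10.2% lower. Lower members outnumbered higher ones inside 40 of the 41 arms, with 23 of each on 3AS, and after quantile normalization inside all 41. In the blocks, lower members led in 29, higher ones in 11, and 1 was tied; after quantile normalization these counts were 39, 2 and 0. Mean level moved with setting, since 50.9% of members of 1 to under 2 FPKM were inside arms and 30.2% of those of 5 to under 20 FPKM, and its part in this difference was not tested.

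Chromosome 6A held few of these transcripts. Inside arms, 6AL had 10 members and 6AS 43, while the other 39 arms had 85 to 436. Per 1000 transcripts with a gene ID, that was 1.27 and 6.22 members, against 11.996 to 35.5 elsewhere. The block after 6AL had 86 transcripts and that after 6AS 133, the shortest of the 41, and the others had 231 to 1139. In proportion to annotated transcripts and in block length alike, both arms of 6A lay below the range of the other 39. The homoeologous arms 6BL and 6DL, themselves among those 39, had 251 and 253 members inside. Per 1000 transcripts with a gene ID, that was 30.1 and 25.7. Over subgenomes, members inside arms numbered 2181 on A, 2908 on B and 2392 on D. Their shares at least 2-fold lower lay close together, at 15.2%, 15.1% and 15.3%. Shares at least 2-fold higher were 8.85%, 6.91% and 8.15%, the lowest on B. Their summed FPKM was higher at 4 °C than at 23 °C on A (16008 against 14881.5) and D (19751 against 18260). On B it was lower (13864 against 16532).

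**Figure D3:**
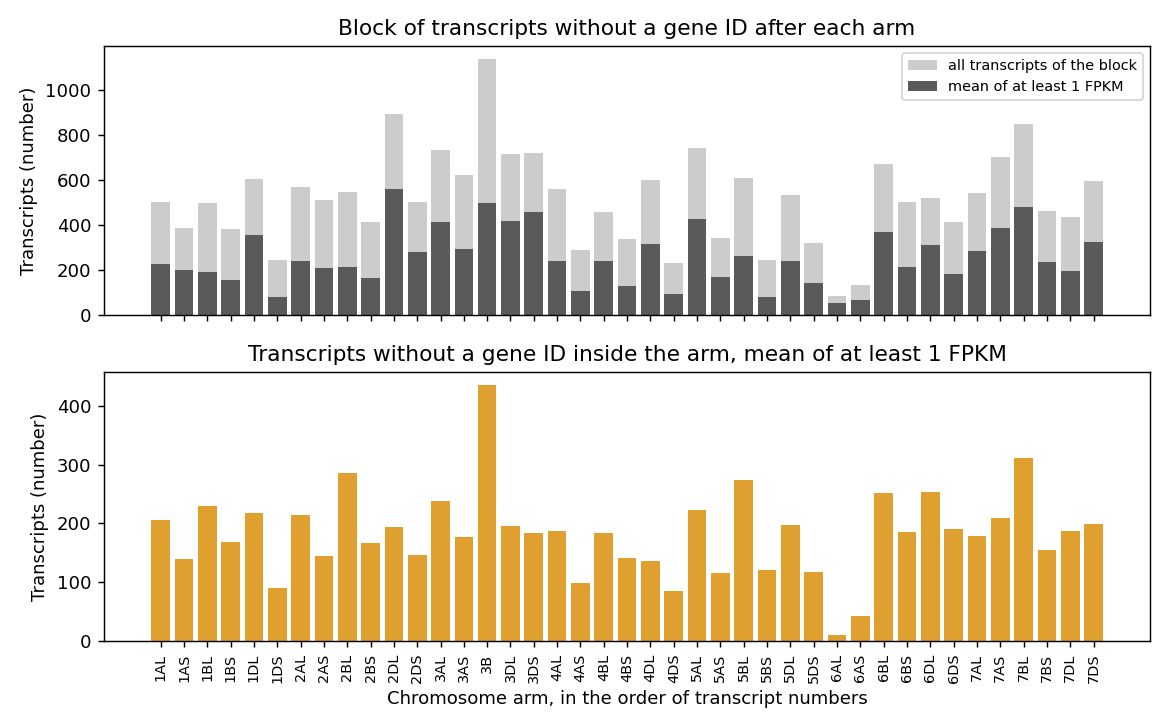
Numbers of transcripts without a gene ID by chromosome arm, in the order of transcript numbers: the block after each arm (top; all transcripts in light grey, members in dark grey) and the members inside the arm (bottom). Both panels are lowest at 6AL and 6AS, with blocks of 86 and 133 transcripts and 10 and 43 members inside.

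Neighbours inside arms differed alike, and neighbours in blocks hardly did. For 1483 pairs of members with consecutive numbers inside arms, the log2 differences correlated with Pearson's r of 0.53. When the first of such a pair was 2-fold higher in the cold, the second was too in 49.1% of 161 cases, and when the first was lower, the second was too in 42.4% of 255. For 5652 consecutive pairs in blocks, r was 0.03, and these shares were 16.8% and 17.7%, close to the shares of higher and lower members in blocks overall. Inside arms r was 0.29 at a distance of 2 numbers (755 pairs), 0.20 at 3 (504 pairs) and 0.04 at 5 (281 pairs). The pairs share libraries and, where they are isoforms of a locus, reads that the software divides among them, so r is a description. Exactly equal values in both columns occurred in 4 pairs, all inside arms, and without them r was still 0.53.

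Annotated transcripts give a scale for this. Consecutive transcripts of the same gene ID had an r of 0.57 (11648 pairs), and consecutive transcripts of different gene IDs 0.04 (4643 pairs). Members inside arms were near the former value and members in blocks near the latter. A member directly beside a transcript with a gene ID, both at or above the limit, showed no such likeness: over 1584 pairs r was 0.01. In 61.6% of those pairs the member had the lower level of the pair, with medians of 2.14 FPKM for members and 3.56 FPKM for annotated transcripts. Of 1584 such pairs 3.47% differed 2-fold the same way and 2.15% in opposite ways.

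Consecutive members that differed 2-fold in opposite directions numbered 308, of which 284 pairs were in blocks and 24 inside arms. Pairs with the same direction numbered 491, with 304 in blocks and 187 inside arms. In blocks the 2 kinds were about equally common, and inside arms same-direction pairs were the great majority. In 199 of the 308 opposite pairs, the summed FPKM of the pair differed by less than 2-fold between temperatures. Opposite differences offset each other in a sum, so this count follows in part from the choice of pairs. It has no comparison beside it.

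**Figure D4:**
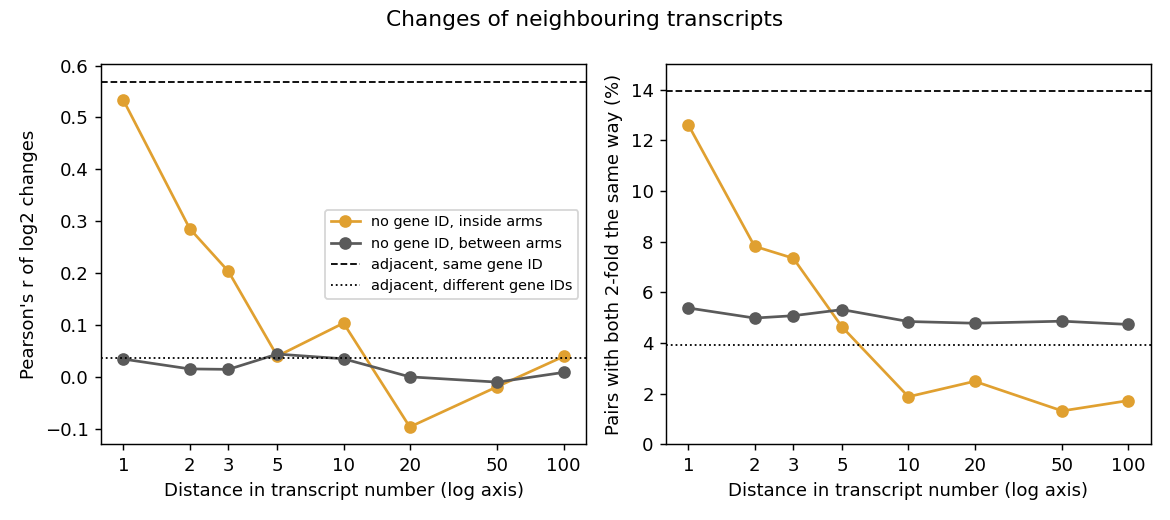
Pearson's r of log2 differences (left) and percentage of pairs with both members at least 2-fold the same way (right) against distance in transcript number (log axis), for members inside arms (orange) and in blocks between arms (grey); lines mark consecutive annotated transcripts of the same (dashed) and of different (dotted) gene IDs. Inside arms r goes from 0.53 at distance 1 to 0.04 at distance 5, while in blocks it lies between -0.01 and 0.04 throughout.

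Runs of 3 or more consecutive members, each at least 2-fold the same way, numbered 21 in each direction. They held 68 of the 2050 higher members and 68 of the 2895 lower ones, and 80.6% and 81.6% of higher and lower members had no direct neighbour of their kind. Runs of exactly 3 numbered 17, of 4 there were 3, and of 5 there was 1, in each direction. Of each 21, 11 were in blocks, which held 58.4% of the members and 5652 of the 7135 consecutive pairs. Blocks thus had a smaller share of the runs than of the consecutive pairs. No count of runs over transcripts with a gene ID is given here. The summed level of a run differed at least 4-fold on log2(sum of FPKM + 1) in 14 of the 21 higher runs and 14 of the 21 lower runs.

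The longest higher run, numbers 323927 to 323931 inside arm 5DS, had 5 transcripts. Runs of 4 were tied in length, and the pair with the larger summed FPKM is given for each direction. In the run of 5, levels went from 1.40, 1.504, 0.103, 0.368 and 0.232 FPKM to 13.6, 17.9, 4.38, 5.13 and 9.53 FPKM. Every one was above 4 FPKM in the cold, and the sum went from 3.61 to 50.5 FPKM. The transcripts directly before and after carry gene IDs and went from 2.25 to 1.53 FPKM and from 0.0947 to 0.150 FPKM, so neither differed 2-fold upward on the log2(FPKM + 1) scale. Also inside 5DS, 323712 to 323715 went from 0.311, 0.178, 1.38 and 1.85 FPKM to 2.02, 13.6, 37.8 and 28.6 FPKM. The transcript after it, also without a gene ID, went from 0.220 to 1.296 FPKM and was below the limit on the mean. The third, 164941 to 164944 inside 3B, went from 7.60, 2.81, 2.81 and 0.772 FPKM to 20.6, 20.6, 20.6 and 3.00 FPKM. The middle pair had equal values in both columns and are not separate measurements.

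The longest lower run, 373596 to 373600 in the block after 6DL, went from 2.43, 3.83, 3.03, 30.5 and 94.9 FPKM at 23 °C to 0.610, 0.526, 0.538, 5.05 and 42.8 FPKM at 4 °C. The next, 12346 to 12349 in the block after 1AL, includes TCONS_00012347. Its levels went from 3.95, 193.4, 17.2 and 3.54 FPKM to 0.525, 0, 1.58 and 0.381 FPKM, so all 4 were under 2 FPKM in the cold. The third, 426321 to 426324 inside 7DL, went from 5.42, 9.59, 26.6 and 6.81 FPKM to 0.283, 0.787, 1.60 and 0.337 FPKM. Its neighbours with gene IDs went from 7.95 to 6.70 FPKM and from 0.105 to 0.0681 FPKM.

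Shorter runs held the steepest sums. Inside 4BL, the sum of 3 transcripts went from 2.79 to 322.9 FPKM, a ratio of 115.9. Inside 4AL, that of 3 others went from 261.4 to 0.647 FPKM, a ratio of 403.8, and the fourth largest fall is the middle one. Both are chosen as the extremes among 42 runs.

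**Figure D5:**
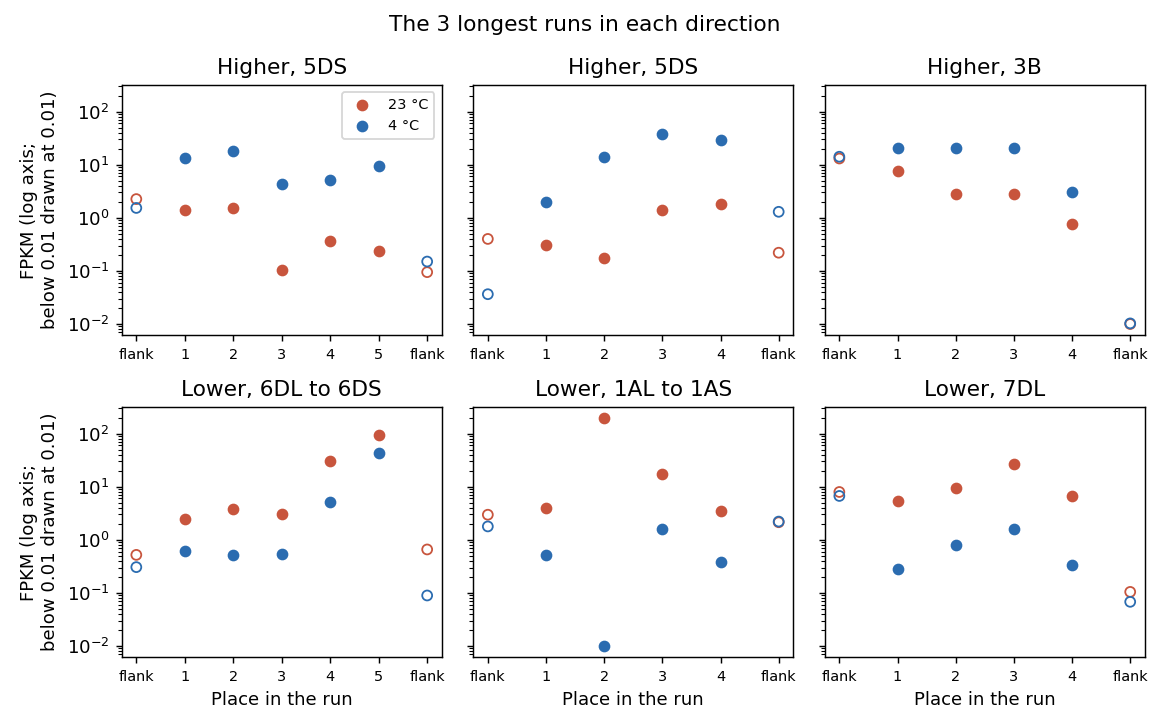
FPKM (log axis, values below 0.01 drawn at 0.01) at 23 °C (red) and 4 °C (blue) of each transcript in the 3 longest higher (top) and lower (bottom) runs, ties in length going to the larger summed FPKM, with the transcripts directly before and after as open circles. Filled blue points lie above red ones throughout the top row and below them in the bottom row. Each open pair differs by less than 2-fold on log2(FPKM + 1), but some of low level differ by more on the drawn axis. After the second higher run (0.220 and 1.296 FPKM) and the first lower run (0.658 and 0.0896 FPKM) they go the way of the run. Before the second higher run (0.400 and 0.0364 FPKM) the open pair goes the other way.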

How the data were processed

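Leaf RNA of wheat grown at 23 °C or 4 °C was sequenced in 6 libraries, 3 per temperature. The submitters' processing notes list Cuffdiff 2.1.1, Cufflinks 2.1.1, STAR 2.3.0e, Trimmomatic 0.30 and CASAVA 1.8.2 without saying what each did. Genome build and annotation: not given in the sources used here. Values are FPKM, which the authors deposited per transcript in 2 columns, control and cold, taken as 23 °C and 4 °C; how libraries were combined is not given, so no test was made and depth is unknown.

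Members are transcripts with an empty gene field and a mean of at least 1 FPKM. Differences are log2(FPKM + 1) at 4 °C minus 23 °C, counted at 2-fold, 4-fold and 8-fold. Runs are 3 or more consecutive numbers. Arms were read from gene IDs. IDs printed are those with the 2 largest rises and 2 largest falls at a mean of at least 5 FPKM; the 10 largest of each, the 10 most abundant, the 5 highest listed at 0 in each column and the 3 longest runs (ties by larger summed FPKM) are given by value. The neighbours of the largest differences, and the runs with the steepest sums, were singled out after their values were seen. Members and lists were chosen with earlier results of these data known. Call and run steps were tested on simulated data without noise, with planted 8-fold differences. The pass was set on rises, their runs and their pairs alone, and calls of planted falls had no pass limit. Python 3.11.15, pandas 2.3.3 and numpy 2.4.6 were used.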

Additional observations from a re-analysis of the deposited data

How the results depend on the processing

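No paired analysis was possible because the authors deposited 1 value per temperature and none per library. Leaving out a library was not possible either, and error and depth are unknown. Counts of higher (2050) and lower (2895) members stayed within 1.5 times under no filter, both median-of-ratios scalings and quantile normalization. A pseudocount of 0.1 gave 4578 lower. A mean of at least 5 FPKM gave 849 and 906, and a 4-fold threshold 639 and 606, since both settings are stricter. Of alternatives added after seeing the data, members inside arms alone gave 589 and 1137, and those in blocks alone 1758 lower. The share of all FPKM taken by transcripts without a gene ID, at 4 °C minus 23 °C, was -2.73 percentage points, -2.49 at a mean of at least 1 FPKM, -2.02 without the 100 most abundant transcripts and -0.556 without the 3 most abundant of the class. Members listed at 0 at 23 °C (141) and 4 °C (157) became 271 and 245 under 0.1 FPKM, and 40 and 28 both with a mean of at least 5 FPKM and with 10 FPKM in the other column. Runs (21 higher, 21 lower) became 51 and 71 with 1 other number allowed between, 186 and 253 at a minimum of 2, 3 and 3 at 4-fold, and 43 and 64 with a pseudocount of 0.1; median-of-ratios scaling gave 21 and 21. Consecutive pairs that differed together made up 6.88%, 6.94% after median-of-ratios scaling, 5.32% at a distance of 2 and 4.59% at 100. Members inside arms numbered 7481, and 7213 with a gene ID within 10 numbers on both sides. For the pseudocount, the cause was not tested.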
